A study of Mus musculus with 17 samples.

Results

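The sarcomere, the contractile unit of the heart muscle cell, is anchored at its ends in the Z disc and at its centre in the M band, and the costamere ties the Z disc to the cell membrane. A set of 33 genes for structural proteins of these sites was followed here through a transcription block in cardiomyocytes lacking or carrying MBNL1 function. The members were listed by name, with earlier results of these data known, and all 33 were found among the 55486 genes of the count table and passed the filter on low counts that left 13229 genes for testing. They fall into 8 roles: 10 Z disc genes, titin, 3 M band genes, 2 thin filament caps, 5 genes of intermediate filaments and their chaperones, 4 genes of filamin and actin-binding repeat proteins, 2 LIM-only genes and 6 costamere genes.

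RNA sequencing was done on total RNA of ventricular cardiomyocytes isolated from P60 mice and plated for 3 h on laminin. KO cells came from mice labelled MBNL1 loss-of-function and WT cells from controls, and both were exposed to actinomycin D, an inhibitor of transcription, at 2 µg/mL in medium that contained BDM, an inhibitor of contraction. There were 3 KO libraries each at 0, 4 and 8 h of actinomycin D, 3 WT libraries each at 0 and 8 h, and 2 WT libraries at 4 h. The question behind the study was which transcripts differ in stability when MBNL1, an RNA-binding protein of splicing and of transcript 3′ ends, is lost. How MBNL1 was lost, in which cells, at what age, and whether the libraries of a group came from separate animals is not given in the sources used here, so that p-values measure the spread between these libraries, which may be technical. No library of untreated cells at 4 or 8 h was analysed here, so that time in culture and the block cannot be told apart.

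Z disc proteins such as alpha-actinin, encoded by Actn2, cross-link the thin filaments of neighbouring sarcomeres, titin spans from the Z disc to the M band, and the myomesins link thick filaments in the M band. Dystrophin, dystroglycan, the sarcoglycans and vinculin connect this lattice to the membrane and the matrix outside. Variants in many of these genes cause inherited cardiomyopathy or muscular dystrophy in humans, and several of their transcripts, titin among them, are spliced differently in fetal and adult heart.

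Library totals were 17058419 to 17968827 counts, of which 35.1 to 43.3% came from mitochondrial genes, and the members together held 1.88 to 2.35% of each library. Levels are given as CPM, counts relative to the library total after TMM scaling, which sets libraries to a common trimmed mean, so a change is relative to the other transcripts of a library and fewer cells of a type and less RNA per cell cannot be told apart. Mbnl1 itself had 93.9 to 106 CPM in the 9 KO libraries and 85.7 to 92.9 CPM in the 8 WT libraries, a log2 fold change at 0 h of 0.19 by TMM scaling and of -0.0126 by library size alone. A count over the whole gene does not show a deletion or frameshift within it, and since the affected part of the gene is not given, this level checks no label. The label was mirrored by Esr1, the estrogen receptor gene, which had 2253 to 2595 CPM in KO libraries and 0 to 3.34 CPM in WT libraries. The summed level of 10 cardiomyocyte markers was 71612 to 75121 CPM in KO and 60352 to 62670 CPM in WT libraries at 0 h, with no marker at 0. Summed over 10 genes each, macrophage and leukocyte markers reached 32.7 to 36.7 CPM in KO against 76.6 to 90.5 CPM in WT libraries, fibroblast markers 40.3 to 44.5 against 75.0 to 78.5 CPM, endothelial markers 200 to 232 against 277 to 289 CPM, and pericyte and smooth muscle markers 442 to 471 against 545 to 569 CPM. Most of the last sum is Abcc9 (306 to 331 CPM in KO against 412 to 427 CPM in WT libraries), and of the 8 tested genes of that list 1 was called lower and 7 were not called (median -0.03). Of the 4 atrial markers, Nppa was higher, with 96.5 to 103 CPM in KO against 61.5 to 62.0 CPM in WT libraries, and Sln, Myl7 and Myl4 were lower, each with under 4 CPM in KO and under 6 CPM in WT libraries. By their sum, the 10 skeletal muscle markers, mostly Ckm and Acta1, had 2147 to 2458 CPM in KO against 1380 to 1583 CPM in WT libraries, with Myh1, Myh4 and Tnnc2 at 0 in both. Of the 5 tested genes of that list 4 were called higher in KO cells at 0 h and 1 was not called. Among the low ones, Tnnt3 had 3.90 to 4.85 CPM in KO against 0.108 to 0.335 CPM in WT libraries. Tnni2 had 3.06 to 3.81 CPM against 0.670 to 0.975 CPM. The part of these differences in the results was not tested.

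The upstream sequence of 29 of the 33 members was in RefSeq's promoter table for GRCm38.p6, which covers 250 bases before to 50 bases after a gene's start. The CArG box, the binding motif of serum response factor, a regulator of muscle genes, was searched on both strands and found in 6 members (20.7%), against 429 of 27025 promoters (1.59%). The windows of 60 bases around it are shown for these 6, which include Dmd and Vcl of the costamere, with the CArG box in capitals. The Ldb3 window lies at chr14:34588682-34588741 (minus strand), the Myom1 window at chr17:71019433-71019492 (plus), the Fhl1 window at chrX:56779556-56779615 (plus), the Fhl2 window at chr1:43196823-43196882 (minus), the Vcl window at chr14:20929148-20929207 (plus) and the Dmd window at chrX:82948747-82948806 (plus). They follow the start in RefSeq, which for Myom1, Fhl1 and Fhl2 lies inside the GENCODE gene.
Ldb3: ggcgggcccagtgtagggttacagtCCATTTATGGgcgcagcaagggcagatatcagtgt
Myom1: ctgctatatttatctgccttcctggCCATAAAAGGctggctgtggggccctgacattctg
Fhl1: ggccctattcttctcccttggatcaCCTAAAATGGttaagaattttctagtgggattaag
Fhl2: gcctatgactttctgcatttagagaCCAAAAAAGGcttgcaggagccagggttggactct
Vcl: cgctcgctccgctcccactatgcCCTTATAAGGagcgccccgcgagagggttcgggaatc
Dmd: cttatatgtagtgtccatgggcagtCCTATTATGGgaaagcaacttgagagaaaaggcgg

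Other muscle motifs were less set apart. The MEF2 site, which like the CArG box has a core of A and T and lay apart from it in Fhl2 and Dmd, was found in 6 members (Myoz2, Synpo2l, Ttn, Xirp2, Fhl2 and Dmd; 20.7%, against 3.29% of all promoters), and the MCAT element (CATTCC) in 7 (24.1%, against 14.7%). The GATA site (GATAAG) was in 4 members (13.8%, against 7.42%), the TATA box (TATAAA) in 4 (13.8%, against 14.2%) and the E box (CAGCTG) in 6 (20.7%, against 16.1%), with both strands searched for each motif. A match describes letters and not a bound site.

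MBNL proteins bind YGCY motifs, in DNA letters TGCT and TGCC and the variants CGCT and CGCC. The sense strand of the GENCODE M21 3′ UTR of 1 coding transcript per gene was searched for them, overlapping matches included. That transcript had the longest coding sequence and, among equals, the longest 3′ UTR, so other 3′ ends of a gene were not searched. The members had a median of 13.3 such sites per kb of 3′ UTR, against 12.5 over 11987 tested genes. Across the 33 members, the Spearman correlation of this density with the genotype difference at 0 h was 0.06. With the change over 8 h in WT cells it was 0.18 (genes share libraries and are not replicates). The windows of 30 bases with the most sites are shown for 4 members named in the results below, with the sites in capitals. Dmd and Actn2 were the members highest in KO relative to WT at 0 h. Xirp2 was lower, though not the lowest, and Xirp1 fell most during the block. The annotated 3′ UTR held 31 sites in 3659 bases for Dmd, 1 in 68 bases for Actn2, 4 in 355 bases for Xirp2 and 25 in 2271 bases for Xirp1.
Dmd: aaccccaccaaatgacTGCTtcatatTGCT
Actn2: TGCTctttctgtaatccctaccctatcaga
Xirp2: gaagagtctgcacTGCCggtgttcatCGCC
Xirp1: aaaaacccgggTGCCTGCCtcttcatCGCC

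Levels of the members spanned a wide range. Per kb of annotated exon, Tcap (telethonin, which caps titin at the Z disc) had 1046 CPM per kb in KO and 837 in WT cells at 0 h, Cryab (the small heat shock protein alpha B-crystallin) 1018 and 963, and Fhl2 (a LIM-only adaptor of the sarcomere) 1007 and 736. These 3 were followed by Des (desmin), Csrp3 (muscle LIM protein) and Actn2. At the low end, Synm (synemin, an intermediate filament protein) had 0.212 CPM per kb in KO and 0.364 in WT cells, and Pdlim3 (an alpha-actinin-binding PDZ and LIM protein) 0.636 and 0.788. Dmd stood at 6.95 CPM per kb in KO cells, above Obsl1, and at 3.13 in WT cells, below Sgcd.

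Before the block began, more members were called higher than lower in KO cells by TMM scaling. Of the 33 members, 19 were higher and 4 lower in KO than in WT cells at 0 h (adjusted p under 0.05, edgeR's quasi-likelihood test with Benjamini-Hochberg adjustment over 13229 genes), where 18.8% of all tested genes were called higher and 17.9% lower (36.6% in either direction). The median log2 fold change of the members was 0.15, against -0.02 over all tested genes. In 26 members the KO and WT libraries did not overlap in CPM, as in 45.8% of tested genes. How many members counted as higher depended on the scaling of the libraries. Scaling by library size alone shifted the median of all genes to -0.22 and called 10 members higher and 12 lower. Scaling by the total of genes not encoded in mitochondria shifted it to -0.16 and called 12 and 11. Scaling by ribosomal protein genes shifted it to -0.35 and called 3 and 16. In that order, these scalings called 6469, 5909 and 8135 of the 13229 tested genes in either direction, more than TMM scaling did. Under all 5 scalings tried, which included DESeq2's size factors, Dmd, Actn2 and Vcl were called higher and Synm, Xirp2, Cmya5 and Flnc lower. The share of all tested genes called under all 5 was not counted. The lowest value over the 5 scalings was below 0 for 10 of the 19 members called higher: Myoz2, Tcap, Csrp3, Nebl, Obsl1, Lmod2, Des, Bag3, Fhl1 and Dag1.

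**Figure D1:**
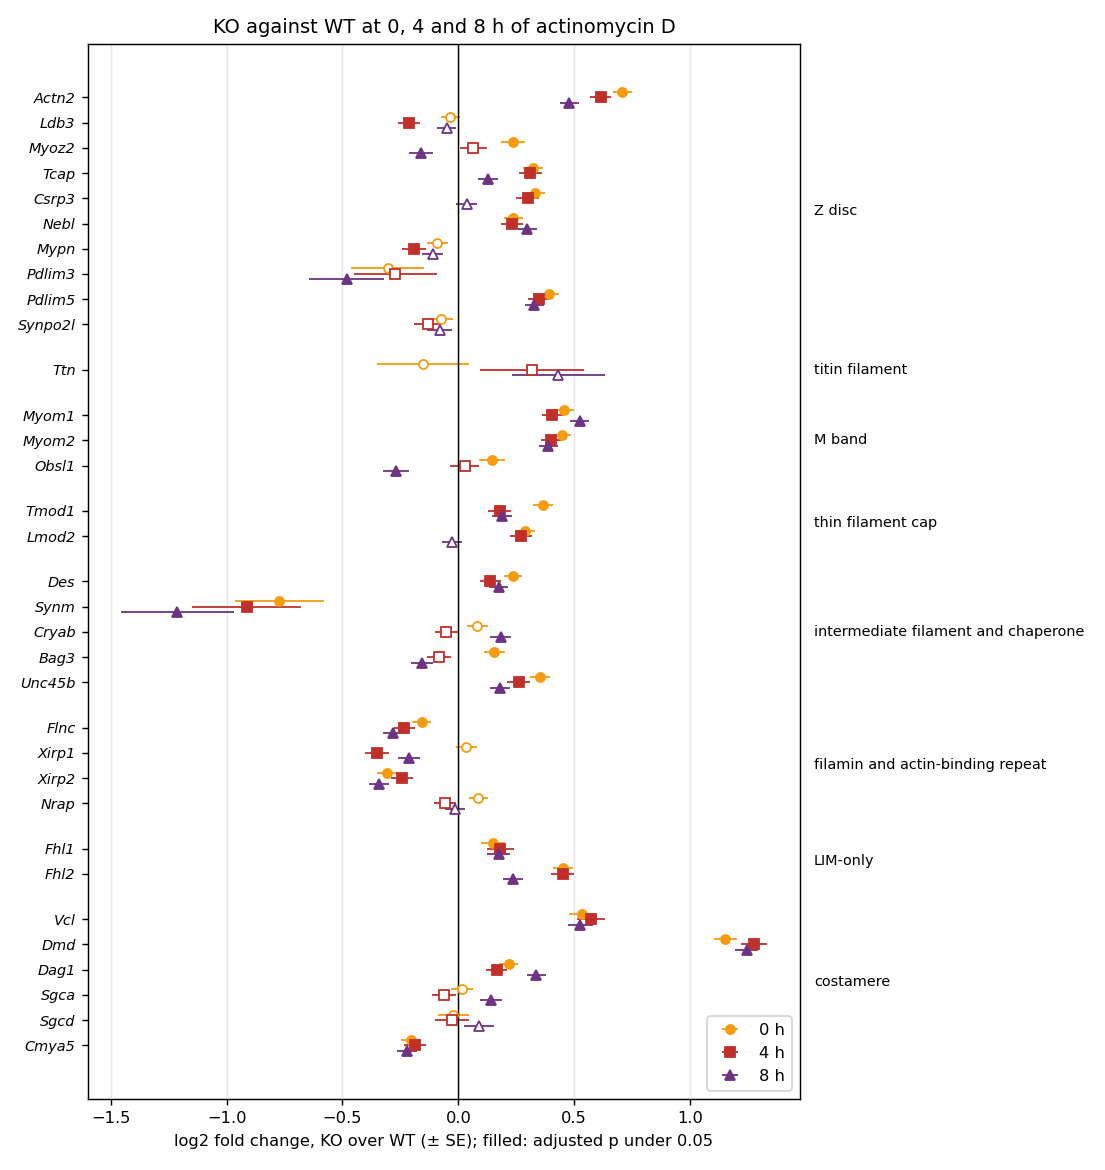
Log2 fold change of KO over WT (horizontal axis, ± SE) of the 33 members, ordered by role, at 0 h (circles), 4 h (squares) and 8 h (triangles) of actinomycin D. Filled symbols passed an adjusted p of 0.05. Dmd lies at 1.15 to 1.28 at the 3 times, and Synm, Xirp2, Cmya5 and Flnc lie left of 0 at each.

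The costamere held the largest difference. Dmd, the X-linked gene of dystrophin, which links actin to the dystroglycan complex in the membrane, had 162, 167 and 167 CPM in the KO libraries at 0 h, against 73.8, 72.9 and 76.5 CPM in the WT libraries. The lowest KO library was above the highest WT library by more than the whole spread within either group. Dmd was higher by 1.15 ± 0.05 on the log2 scale (SE, edgeR adjusted p = 1.1e-29), a fold of 2.22, and the value lay between 0.82 and 1.17 over the 5 scalings. The 403 X-linked genes tested had a median of -0.02. Measured within each library, so that no scaling enters, the ratio of Dmd to Dag1 counts was 0.490 ± 0.004 in KO and 0.256 ± 0.006 in WT libraries (SD, n = 3 each), and that of Dmd to Utrn, the dystrophin-related utrophin gene, was 3.80 ± 0.12 and 1.71 ± 0.08.

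The other members of the dystrophin complex moved less. Dag1, the gene of dystroglycan, the membrane receptor that dystrophin holds, had 333, 338 and 342 CPM in KO libraries against 288, 291 and 292 CPM in WT libraries, and was called higher, with -0.12 as its lowest log2 fold change over the scalings. Sgca and Sgcd, the genes of alpha- and delta-sarcoglycan, were not called, with 101 to 109 CPM in KO and 98.1 to 111 CPM in WT libraries for Sgca and with 27.0 to 27.9 CPM and 25.8 to 29.4 CPM for Sgcd. The KO and WT libraries overlapped for both sarcoglycan genes.

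Vcl, the gene of vinculin, which joins actin to integrin and cadherin adhesions, had 80.4, 80.4 and 74.8 CPM in KO libraries, against 50.8, 55.6 and 56.5 CPM in WT libraries at 0 h. It was higher by 0.53 ± 0.05 (adjusted p = 8.9e-13). The exons of Vcl share 2090 bases with Ap3m1 on the opposite strand, and whether reads were counted by strand is not given in the sources used here, so a part of the Vcl count may be that gene's. Cmya5 (myospryn, which binds desmin and alpha-actinin) ran the other way, with 443, 445 and 456 CPM in KO libraries and 489.9, 547 and 514 CPM in WT libraries. It was lower at -0.20 ± 0.04 on the log2 scale (adjusted p = 7.6e-05), with every KO library below every WT library.

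**Figure D2:**
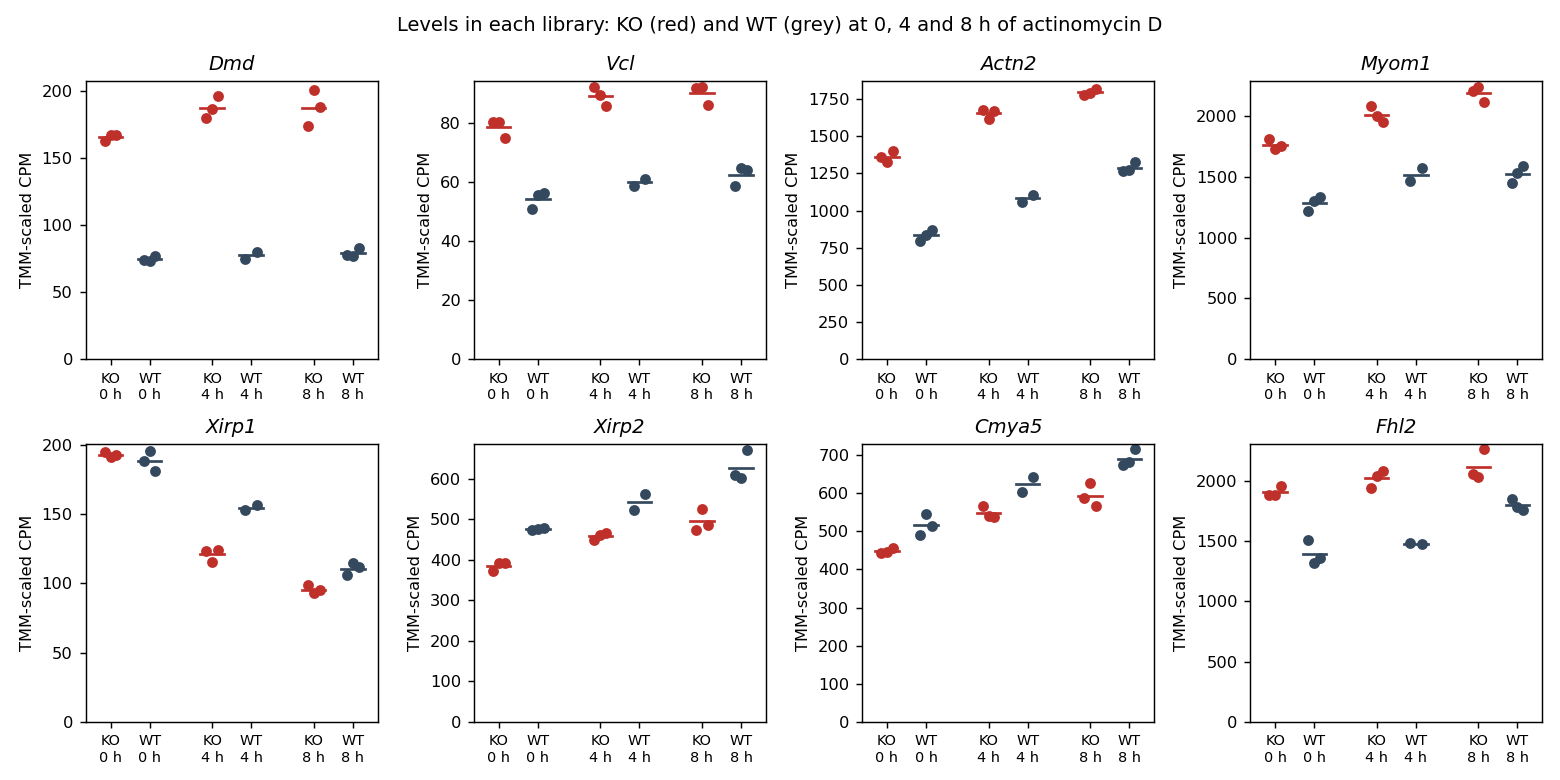
TMM-scaled CPM (vertical axis) of 8 members in each library, for KO (red) and WT (grey) at 0, 4 and 8 h of actinomycin D; points are libraries and bars are group means. For Dmd, Vcl, Actn2, Myom1 and Fhl2 every KO library lies above every WT library of the same time, for Xirp2 and Cmya5 below it, and Xirp1 overlaps at 0 h only.

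In the Z disc, 6 of 10 genes were higher in KO cells at 0 h and none lower, with a median of 0.24. Actn2 had 1358, 1328 and 1399 CPM in KO libraries, against 795, 838 and 868 CPM in WT libraries. All KO libraries were above all WT libraries, and the log2 fold change was 0.71 ± 0.04 (adjusted p = 1.8e-23), or 0.37 to 0.73 over the 5 scalings. The count of Actn2 relative to that of Ldb3, the gene of the alpha-actinin-binding protein ZASP, was 1.85 ± 0.03 in KO and 1.11 ± 0.08 in WT libraries. The other Z disc genes called higher were Pdlim5, Csrp3, Tcap, Nebl and Myoz2, of which the last 4 lay below 0 under at least 1 scaling. Pdlim5, of the same PDZ and LIM family as Ldb3, had 549.5 to 583 CPM in KO and 419 to 455 CPM in WT libraries. Nebl, the gene of nebulette, a cardiac relative of nebulin, had 458 to 489 CPM and 393 to 406 CPM. Myoz2 (calsarcin, which holds calcineurin at the Z disc) had 787 to 822 CPM in KO and 657 to 723 CPM in WT libraries and was higher by 0.24 ± 0.05 (adjusted p = 3.7e-04), but by scaling to ribosomal protein genes it was -0.0976 with an adjusted p of 0.15. Ldb3, Mypn (myopalladin, a titin- and nebulin-binding scaffold), Synpo2l and Pdlim3 were not called.

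Titin and the M band differed from each other. Ttn had 2796, 2147 and 2512 CPM in KO libraries and 2367, 3003 and 2928 CPM in WT libraries at 0 h. The groups overlapped, and the fold change of -0.15 ± 0.20 was not called (adjusted p = 0.60). Over all 17 libraries Ttn ranged from 2147 to 4508 CPM, and libraries of 1 group differed by as much as 2779 and 4508 CPM, in KO cells at 8 h. Gene-level counts cannot show which titin isoforms were present. Myom1 and Myom2, the genes of the myomesins, were both higher in KO cells: Myom1 had 1814, 1726 and 1755 CPM against 1221, 1299 and 1338 CPM in WT libraries, a difference of 0.46 ± 0.04 (adjusted p = 2.8e-14), and Myom2 had 1603, 1561 and 1651 CPM against 1148, 1184 and 1199.8 CPM, a difference of 0.45 ± 0.04 (adjusted p = 6.6e-15). The ratio of Myom1 to Myom2 counts was 1.10 ± 0.03 in KO and 1.09 ± 0.03 in WT libraries. Both kept a positive sign under the 5 scalings but were not called higher under all of them at 0 h. Obsl1 (obscurin-like 1, which binds titin and myomesin at the M band) was higher by 0.14 ± 0.06 (adjusted p = 0.035), at 52.0 to 53.2 CPM in KO and 46.7 to 49.0 CPM in WT libraries, and its sign turned, to -0.0619, -0.00223 and -0.19, by library size, non-mitochondrial total and ribosomal protein scaling. Its call was lost without any 1 of the KO libraries (log2 fold changes of 0.14 to 0.16).

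Of the thin filament caps, Tmod1 (tropomodulin, which closes the pointed end) had 238, 222 and 229 CPM in KO libraries, against 174, 183 and 178 CPM in WT libraries at 0 h, and was higher by 0.37 ± 0.04 (adjusted p = 2.6e-10). Lmod2 (leiomodin, which lets the pointed end grow) had 433, 449 and 472 CPM in KO libraries against 390.0, 353 and 366 CPM in WT libraries and was called higher too, with -0.0454 as its lowest value over the scalings. The libraries of the genotypes did not overlap for either cap. The exons of Tmod1 share 1287 bases with Tstd2 on the opposite strand, a gene with 1785 counts over the 17 libraries against 72847 for Tmod1. Exons on the opposite strand also overlap Myom1 (Myl12a, 207 bases), Cryab (Hspb2, 252 bases) and Nrap (Habp2, 268 bases).

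In the intermediate filament and chaperone role, 3 genes were higher at 0 h, 1 was lower and 1 was not called. Des, the muscle intermediate filament, had 1435, 1474 and 1571 CPM in KO libraries, against 1281, 1277 and 1246 CPM in WT libraries. Unc45b, the chaperone of myosin heads, had 156 to 169 CPM and 125 to 127 CPM, and Bag3, the co-chaperone that clears damaged filamin, 145 to 151 CPM and 129.8 to 135 CPM. All 3 had every KO library above every WT library. Bag3 was higher by 0.15 ± 0.05 (adjusted p = 0.0052) and turned to -0.0511 by library size and to -0.18 by ribosomal protein scaling, and the lowest value of Des over the scalings was -0.10. Cryab overlapped between the genotypes.

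Synm was the member with the lowest fold change. It had 28, 27 and 32 counts in KO libraries (1.58, 1.62 and 1.85 CPM), against 61, 59 and 51 counts in WT libraries (3.30, 2.92 and 2.44 CPM) at 0 h. The groups did not overlap, and Synm was lower at -0.77 ± 0.19 (adjusted p = 9.0e-04). It rests on 564 counts over the 17 libraries, its exons share 84 bases with Ttc23 on the opposite strand, and Ttc23 had 1511 counts. The fibroblast, macrophage and endothelial marker sums were lower in the KO libraries at 0 h as well, and their part in the Synm level was not tested.

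By TMM scaling none of the 4 filamin and actin-binding repeat genes was called higher in KO cells at 0, 4 or 8 h. Of all tested genes 18.8%, 14.6% and 13.9% were called higher at these times, and none in 4 genes is little apart from that. Xirp2, whose repeats bind actin and which sits at the intercalated disc and the Z disc, had 372, 391 and 392 CPM in KO libraries, against 474, 475 and 479.7 CPM in WT libraries at 0 h. The WT libraries lay close together and all above the KO libraries, and Xirp2 was lower at -0.31 ± 0.04 (adjusted p = 2.2e-08). Flnc, the gene of muscle filamin, which cross-links actin at the Z disc and the costamere, had 293, 298 and 295 CPM in KO libraries and 332, 346 and 312 CPM in WT libraries, a difference of -0.16 ± 0.04 (adjusted p = 0.0015). That call was lost without the second WT library, at -0.09. Xirp1, the other gene of the Xin family, had 195, 192 and 193 CPM in KO libraries and 188, 196 and 182 CPM in WT libraries at 0 h, and the groups overlapped (0.03 ± 0.04, adjusted p = 0.58). Under other scalings it was called lower at 0 h, at -0.17 by library size (adjusted p = 0.0067), at -0.11 by the non-mitochondrial total (adjusted p = 0.036) and at -0.30 by ribosomal protein scaling (adjusted p = 9.1e-05). Nrap, a nebulin-related anchoring protein, was not called at any time.

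Both LIM-only genes were called higher in KO cells at 0 h, Fhl1 with a lowest value of -0.19 over the scalings. Fhl2 had 1886, 1886 and 1960.5 CPM in KO libraries, against 1508, 1321 and 1359 CPM in WT libraries, with no overlap and a difference of 0.45 ± 0.04 (adjusted p = 2.0e-13). Fhl1, an X-linked relative that binds titin, had 66.4 to 71.1 CPM in KO and 58.8 to 66.3 CPM in WT libraries, so that the lowest KO and the highest WT library almost met.

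**Figure D3:**
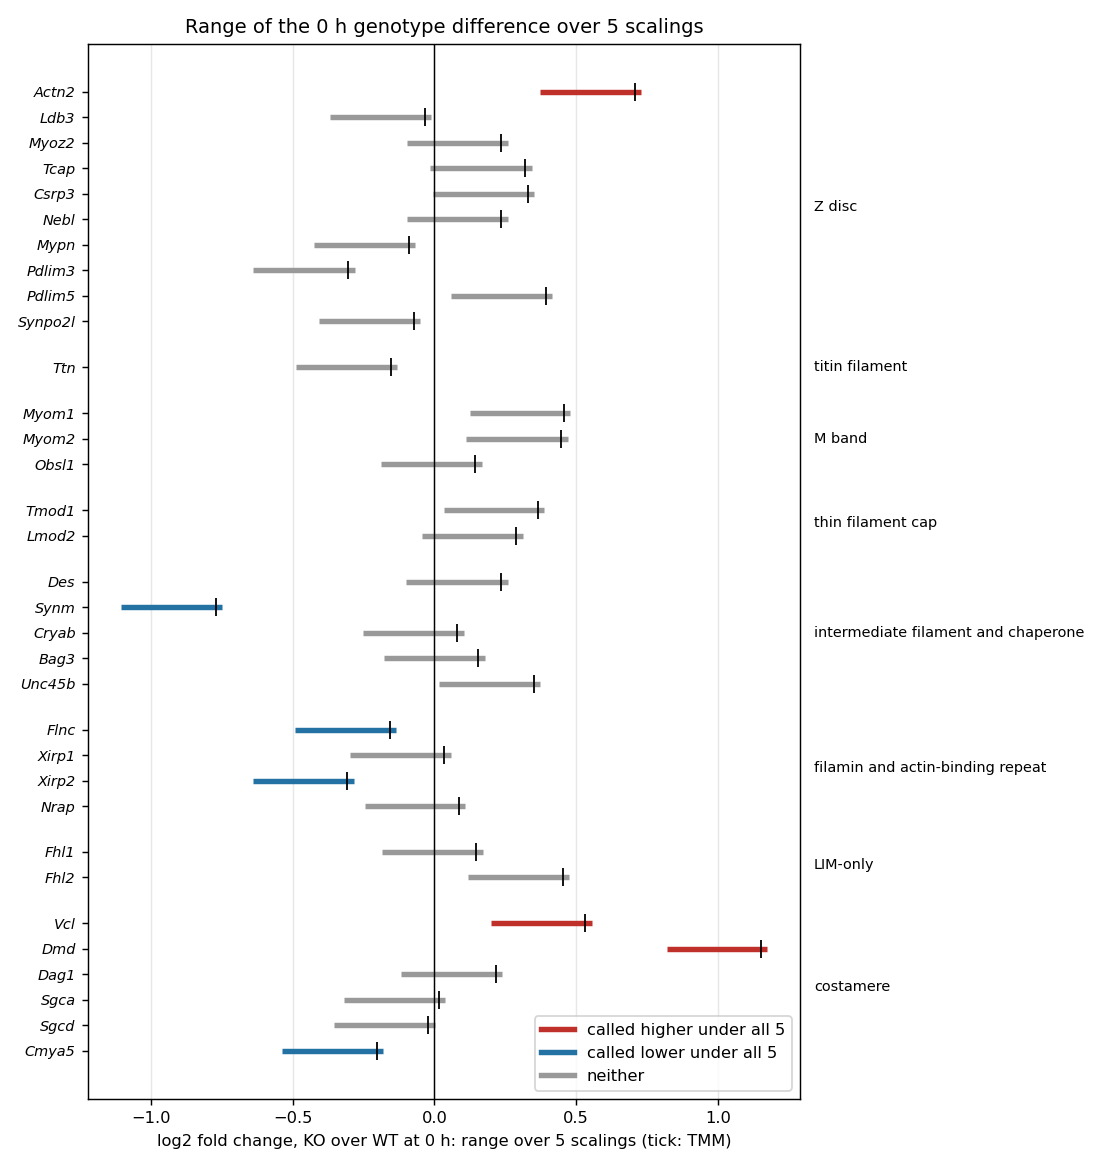
Lowest to highest log2 fold change of KO over WT at 0 h over 5 scalings of the libraries (bars; horizontal axis) for the 33 members, with the TMM value as a tick. Red bars were called higher and blue bars lower under all 5 scalings: Dmd, Actn2 and Vcl lie right of 0, and Synm, Xirp2, Cmya5 and Flnc left of it.

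The genotype difference was read again at 4 and 8 h of the block. At 4 h, 16 members were higher and 7 lower in KO cells, where 14.6% of tested genes were called higher and 17.4% lower (32.0% in either direction). At 8 h, 16 were higher and 9 lower, where 13.9% of tested genes were called higher and 13.7% lower (27.6% in either direction). The comparisons at 0, 4 and 8 h use different libraries. By library size alone 12 members were higher and 8 lower at 4 h and 9 and 13 at 8 h. By the total of genes not encoded in mitochondria they were 12 and 12 at 4 h and 9 and 14 at 8 h. By ribosomal protein scaling, which set the median of all genes to -0.41 at 4 h and to -0.07 at 8 h, they were 3 and 20 at 4 h and 9 and 9 at 8 h. In that order, these scalings called 4126, 4884 and 7938 of 13229 tested genes in either direction at 4 h. At 8 h they called 3990, 4433 and 2993. Under all 5 scalings 3 members were higher (Actn2, Vcl and Dmd) and 7 lower at 4 h, and 9 were higher and 9 lower at 8 h. By TMM scaling, 14 members were called higher at all 3 times: Actn2, Nebl, Pdlim5, Tcap, Myom1, Myom2, Tmod1, Des, Unc45b, Fhl1, Fhl2, Vcl, Dmd and Dag1. Their lowest value over the scalings was below 0 at 0 and 4 h for Nebl, Tcap, Des, Fhl1 and Dag1, and at 4 h also for Pdlim5, Tmod1 and Unc45b. The 4 called lower at all 3 times were Synm, Flnc, Xirp2 and Cmya5, and 4 were called at none: Ttn, Nrap, Sgcd and Synpo2l. The share of all tested genes called at all 3 times, or under all 5 scalings, was not counted, so these member counts have no background.

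Dmd kept its distance. It had 179.7, 186 and 196 CPM in KO libraries against 74.6 and 79.8 CPM in WT libraries at 4 h, and 174, 201 and 188 CPM against 77.2, 77.1 and 83.0 CPM at 8 h. Every KO library was above every WT library at both times. The log2 fold change was 1.28 ± 0.06 (adjusted p = 1.1e-28) at 4 h and 1.24 ± 0.05 (adjusted p = 2.1e-31) at 8 h, and over the 5 scalings it was 0.91 to 1.31 and 1.14 to 1.27. Vcl was likewise higher by 0.57 ± 0.06 (adjusted p = 7.0e-12) at 4 h and by 0.53 ± 0.05 (adjusted p = 1.6e-12) at 8 h. Actn2 was higher by 0.61 ± 0.05 (adjusted p = 5.4e-18) at 4 h, with 1677, 1619 and 1672 CPM in KO against 1059 and 1104 CPM in WT libraries. At 8 h its difference was 0.48 ± 0.04 (adjusted p = 7.1e-16), with 1779, 1789 and 1822 CPM in KO against 1266, 1271 and 1329 CPM in WT libraries. Fhl2 was higher by 0.45 ± 0.05 at 4 h (adjusted p = 2.5e-11), with no overlap between the genotypes.

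The M band genes at the later times split. Myom1 was higher by 0.41 ± 0.05 (adjusted p = 1.5e-10) at 4 h and by 0.52 ± 0.04 (adjusted p = 1.7e-16) at 8 h, and Myom2 by 0.40 ± 0.04 (adjusted p = 4.1e-11) and 0.39 ± 0.04 (adjusted p = 1.5e-12). At 8 h both were called under all 5 scalings. Obsl1, in contrast, had 51.1, 45.1 and 48.2 CPM in KO libraries at 8 h, against 58.7, 60.1 and 55.1 CPM in WT libraries, and was lower at -0.27 ± 0.06 (adjusted p = 1.4e-04). Ttn had 2779, 4508 and 3222 CPM in KO libraries and 2596, 2254 and 2938 CPM in WT libraries at 8 h, which overlapped and were not called (0.43 ± 0.20, adjusted p = 0.14), and at 4 h its difference was 0.32 ± 0.22 (adjusted p = 0.33).

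By TMM scaling 4, 7 and 9 members were lower in KO cells at 0, 4 and 8 h, against 16, 20 and 9 by ribosomal protein scaling. Of all tested genes TMM scaling called 17.9%, 17.4% and 13.7% lower at these times. Ribosomal protein scaling called 8135, 7938 and 2993 of 13229 in either direction. On the log2 scale Xirp2 was lower at -0.24 ± 0.05 (adjusted p = 4.0e-05) at 4 h and at -0.34 ± 0.04 (adjusted p = 1.7e-09) at 8 h, Flnc at -0.23 ± 0.05 (adjusted p = 3.8e-05) and -0.28 ± 0.04 (adjusted p = 8.3e-08), and Cmya5 at -0.19 ± 0.05 (adjusted p = 0.0012) and -0.22 ± 0.04 (adjusted p = 3.1e-05). Every KO library lay below every WT library of the same time for these 3 genes. The Cmya5 call at 4 h was lost without the second WT library, at -0.11. Synm fell to 14, 15 and 15 counts in KO libraries at 8 h, against 34, 39 and 34 counts in WT libraries, and was lower at -0.91 ± 0.24 (adjusted p = 0.0016) at 4 h and at -1.21 ± 0.24 (adjusted p = 7.5e-05) at 8 h. Its call at 4 h was lost without the first WT library, at -0.76. Xirp1, not called at 0 h by TMM scaling, was lower in KO cells at 4 h (-0.35 ± 0.05, adjusted p = 5.5e-08) and at 8 h (-0.21 ± 0.05, adjusted p = 2.5e-04). By TMM scaling Bag3 and Myoz2 changed sides: Bag3 was -0.16 ± 0.05 (adjusted p = 0.0071) and Myoz2 -0.16 ± 0.05 (adjusted p = 0.017) at 8 h, after being called higher at 0 h. By ribosomal protein scaling both were below 0 at 0 h already (-0.18 for Bag3 and -0.0976 for Myoz2), as was Bag3 by library size (-0.0511). The Bag3 call at 8 h was lost without the second KO library (-0.11), and that of Myoz2 without the first or second KO library (-0.15 and -0.12) or the first WT library (-0.10). Pdlim3, at 3.11 to 3.20 CPM in KO and 4.01 to 5.03 CPM in WT libraries at 8 h, was lower at -0.48 ± 0.16 (adjusted p = 0.020), a call lost without the second (-0.47) or the third KO library (-0.48) or the first WT library (-0.37).

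The next comparisons followed the members within each genotype after transcription was stopped. A transcript that decays more slowly than most rises in such data, since the scaling sets the typical transcript to no change. In WT cells, 21 members were higher and 1 lower at 4 h than at 0 h, where 15.9% of tested genes were called higher and 12.6% lower (28.5% in either direction). At 8 h, 24 were higher and 3 lower, where 25.0% of tested genes were called higher and 26.8% lower (51.8% in either direction). In KO cells the counts were 19 higher and 3 lower at 4 h, where 11.4% of tested genes were called higher and 13.5% lower (24.9% in either direction), and 23 higher and 5 lower at 8 h, where 21.4% were called higher and 23.2% lower (44.6% in either direction). The median changes were 0.18 (4 h) and 0.24 (8 h) in WT cells and 0.16 and 0.20 in KO cells. Both times share the 0 h libraries of their genotype. In both genotypes at 8 h, 21 members were called higher and 3 lower, and the share of all tested genes called in both was not counted.

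The direction of these rises rests on the scaling. By library size alone 3 members were called higher and 3 lower in WT cells at 4 h and 10 and 6 at 8 h. That scaling called 3304 and 7172 of 13229 tested genes in either direction at these times. Ribosomal protein scaling shifted the median of all genes to -0.70 in WT cells at 8 h and to -0.40 in KO cells at 8 h. By it no member was called higher at 8 h in either genotype, and 30 (WT) and 18 (KO) were called lower. It called 11352 (WT) and 8149 (KO) of all tested genes in either direction, so these member counts lie near the share of all genes. Under all 5 scalings Xirp1, Synm and Synpo2l were lower at 8 h in both genotypes, Lmod2 and Bag3 were lower at 8 h in KO cells, and Actn2 and Tmod1 were higher at 4 h in WT cells. How many of all tested genes were called under all 5 was not counted. The summed cardiomyocyte markers stood at 90488 to 94669 CPM in KO and 81262 to 85877 CPM in WT cells at 8 h, above their 0 h sums given earlier. Endothelial markers stood at 52.7 to 58.3 CPM in KO and 58.4 to 63.1 CPM in WT cells, below theirs. The part of these shifts in the members' rise was not tested.

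**Figure D4:**
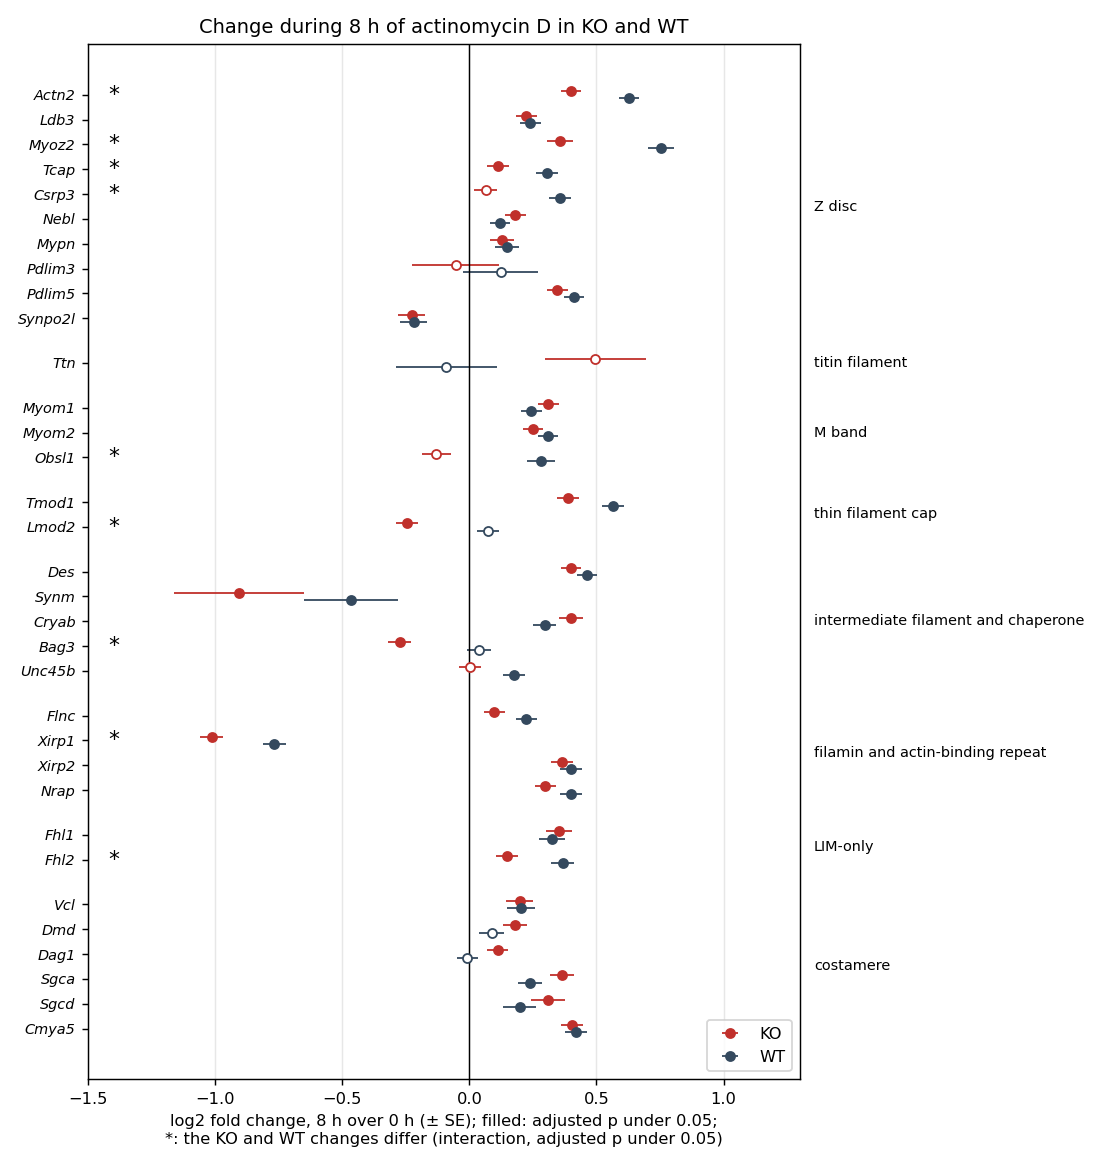
Log2 fold change of 8 h over 0 h of actinomycin D (horizontal axis, ± SE) in KO (red) and WT (grey) cells for the 33 members by role. Filled symbols passed an adjusted p of 0.05, and a star marks the 9 members whose change was called different between KO and WT by TMM scaling. Xirp1 fell most in both genotypes by TMM scaling, and the starred members lie further left in KO than in WT.

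Xirp1 stood apart from its relatives in falling. Its level in KO cells was 195, 192 and 193 CPM at 0 h, 124, 116 and 124 CPM at 4 h, and 98.8, 92.9 and 95.2 CPM at 8 h. In WT cells it was 188, 196 and 182 CPM at 0 h, 153 and 157 CPM at 4 h, and 106, 115 and 112 CPM at 8 h. No 2 times overlapped in either genotype. In KO cells Xirp1 fell by 0.67 ± 0.05 on the log2 scale at 4 h (adjusted p = 1.8e-19) and by 1.01 ± 0.05 at 8 h (adjusted p = 3.0e-28), to 49.5% of its 0 h level. In WT cells it fell by 0.29 ± 0.05 at 4 h (adjusted p = 7.7e-06) and by 0.77 ± 0.05 at 8 h (adjusted p = 8.2e-23), to 58.7%. Xirp2 of the same family was higher at 8 h than at 0 h, by 0.36 ± 0.04 in KO (adjusted p = 1.6e-10) and 0.40 ± 0.04 in WT cells (adjusted p = 4.0e-12). Counted within each library, the ratio of Xirp1 to Xirp2 was 0.502 ± 0.020 at 0 h, 0.264 ± 0.013 at 4 h and 0.194 ± 0.016 at 8 h in KO cells, and 0.396 ± 0.017, 0.285 ± 0.009 (n = 2) and 0.177 ± 0.012 in WT cells (SD, n = 3 elsewhere).

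**Figure D5:**
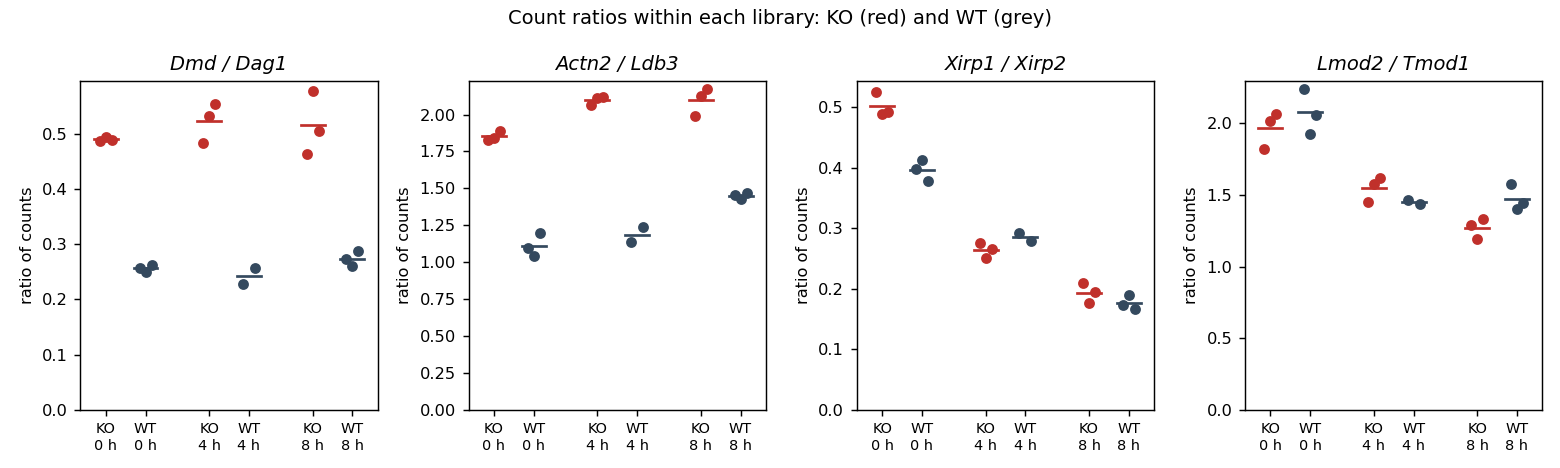
Ratio of the counts of 2 members within each library (vertical axis, no unit), for KO (red) and WT (grey) at 0, 4 and 8 h of actinomycin D; points are libraries and bars are group means. Dmd over Dag1 and Actn2 over Ldb3 were higher in every KO library than in any WT library of the same time, and Xirp1 over Xirp2 was lower at each later time in both genotypes.

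Synm and Synpo2l (a Z disc and actin-binding synaptopodin relative) also went down. Synm fell by 0.91 ± 0.26 (adjusted p = 0.0026) at 8 h in KO cells and by 0.47 ± 0.18 (adjusted p = 0.029) in WT cells, where the call was lost without 4 of the 6 libraries compared (-0.35 to -0.44). Synpo2l had 80.7 to 84.5 CPM at 0 h, 71.5 to 81.0 CPM at 4 h and 67.9 to 74.3 CPM at 8 h in KO cells. In WT cells it had 85.6 to 89.5 CPM at 0 h, 79.0 to 87.4 CPM at 4 h and 71.8 to 78.4 CPM at 8 h, and fell by 0.22 ± 0.05 at 8 h (adjusted p = 2.9e-04). Bag3 fell by 0.15 ± 0.05 (adjusted p = 0.0086) at 4 h and by 0.27 ± 0.05 (adjusted p = 1.2e-06) at 8 h in KO cells. Lmod2 fell by 0.13 ± 0.04 at 4 h in KO cells (adjusted p = 0.022), a call lost without the third library at 0 h or the first at 4 h (-0.10 and -0.09).

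Among the members that rose, Myoz2 rose most in WT cells, by 0.75 ± 0.05 at 8 h (adjusted p = 1.8e-14) and 0.33 ± 0.06 at 4 h (adjusted p = 2.7e-05). Its level there was 657 to 723 CPM at 0 h, 852 and 859.6 CPM at 4 h, and 1092 to 1236 CPM at 8 h. In KO cells Myoz2 was at 787 to 822 CPM at 0 h, 827 to 934 CPM at 4 h and 960.5 to 1108 CPM at 8 h, a rise of 0.36 ± 0.05 at 8 h (adjusted p = 6.4e-07). Actn2 rose by 0.40 ± 0.04 at 8 h in KO cells (adjusted p = 4.5e-13), to 132% of its 0 h level. In WT cells it rose by 0.63 ± 0.04 (adjusted p = 2.5e-21), to 155%. Tmod1 rose by 0.39 ± 0.04 in KO (adjusted p = 3.0e-11) and 0.57 ± 0.04 in WT cells (adjusted p = 1.5e-17), Des by 0.40 ± 0.04 (adjusted p = 4.9e-13) and 0.46 ± 0.04 (adjusted p = 1.2e-15), and Cmya5 by 0.40 ± 0.04 (adjusted p = 4.0e-12) and 0.42 ± 0.04 (adjusted p = 4.4e-13). By ribosomal protein scaling the WT changes at 8 h turned to -0.0399 for Actn2, -0.10 for Tmod1, -0.21 for Des and -0.25 for Cmya5. Cryab rose by 0.40 ± 0.05 in KO cells (adjusted p = 1.8e-10).

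At 4 h the called members with the highest changes in WT cells were Tmod1 at 0.41 ± 0.05 (adjusted p = 6.4e-10), Actn2 at 0.38 ± 0.04 (adjusted p = 3.8e-10), Myoz2, Pdlim5 at 0.31 ± 0.05 (adjusted p = 1.1e-07) and Des at 0.31 ± 0.04 (adjusted p = 7.6e-08). The smallest called rises were those of Dag1 at 0.14 ± 0.05 (adjusted p = 0.019) and Tcap at 0.14 ± 0.05 (adjusted p = 0.020), and both turned below 0 under 3 of the 5 scalings. In KO cells the called members with the highest changes were Cmya5 at 0.29 ± 0.04 (adjusted p = 2.2e-07), Actn2 at 0.28 ± 0.04 (adjusted p = 6.3e-08), Pdlim5 at 0.27 ± 0.04 (adjusted p = 4.5e-07), Sgcd at 0.26 ± 0.07 (adjusted p = 0.0021) and Xirp2 at 0.25 ± 0.04 (adjusted p = 5.3e-06). Ttn in KO cells had a larger value at 4 h, 0.42 ± 0.20, with 3137 to 3611 CPM at 4 h and 2147 to 2796 CPM at 0 h, and was not called (adjusted p = 0.15). Dmd changed little during the block, by 0.18 ± 0.05 at 8 h in KO cells (adjusted p = 0.0013) and by 0.09 ± 0.05 in WT cells (adjusted p = 0.14), and its sign depended on the scaling in both. By TMM scaling all 6 costamere genes were called higher at 8 h in KO cells, where 21.4% of tested genes were, and 4 of 6 in WT cells, where 25.0% were. None of the 6 was called higher in either genotype under all 5 scalings.

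The difference between the genotypes' changes, an interaction, addresses the study's question most directly. At 4 h, 1 of 33 members was called and it was lower, where 0.348% of tested genes were called (0.242% higher and 0.106% lower). Xirp1 fell further in KO than in WT cells by 4 h, with an interaction of -0.39 ± 0.07 on the log2 scale (adjusted p = 3.6e-04). At 8 h, 9 members were called and all were lower, where 5.2% of tested genes were called (1.87% higher and 3.33% lower). These were Actn2, Myoz2, Tcap and Csrp3 of the Z disc, Obsl1, Lmod2, Bag3, Xirp1 and Fhl2, and no member of the costamere. The interactions at 4 and 8 h share the 0 h libraries.

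For the members called, the level at 8 h was read as a percentage of the 0 h level of the same genotype. Obsl1 stood at 91.3% in KO and 122% in WT cells (interaction -0.41 ± 0.08, adjusted p = 4.6e-04), Myoz2 at 128% and 169% (-0.40 ± 0.07, adjusted p = 7.0e-04), and Lmod2 at 84.3% and 105% (-0.32 ± 0.06, adjusted p = 5.3e-04). Bag3 stood at 82.7% in KO and 103% in WT cells (-0.31 ± 0.07, adjusted p = 0.0013), Csrp3 at 104% and 128% (-0.29 ± 0.06, adjusted p = 0.0015), and Xirp1 at the values given above (-0.25 ± 0.06, adjusted p = 0.011). Actn2 stood at 132% and 155% (-0.23 ± 0.06, adjusted p = 0.0070), Fhl2 at 111% and 129% (-0.22 ± 0.06, adjusted p = 0.023), and Tcap at 108% and 124% (-0.19 ± 0.06, adjusted p = 0.047). All but Xirp1 were called higher in KO than in WT cells at 0 h, and Lmod2 and Csrp3 were close to level between the genotypes at 8 h. The interaction subtracts the 0 h difference of the same libraries. A high KO level at 0 h thus lowers the interaction, and the 0 h calls are no separate evidence for it. Lmod2 had 379 to 384 CPM in KO and 366 to 403 CPM in WT libraries at 8 h, and the groups overlapped. The ratio of Lmod2 to Tmod1 counts was 1.97 ± 0.13 at 0 h and 1.27 ± 0.07 at 8 h in KO libraries, against 2.08 ± 0.16 and 1.47 ± 0.09 in WT libraries (SD, n = 3 each).

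None of these interactions was called under all 5 scalings. By library size alone 2 members were called lower at 8 h and none at 4 h, where 696 and 100 of 13229 tested genes were called in either direction. By ribosomal protein scaling, which shifted the median of all genes to 0.27 at 8 h, 18 members were called higher and none lower. In either direction that scaling called 3215 of the tested genes at 8 h. The Tcap and Fhl2 calls at 8 h were lost without several single libraries (-0.14 to -0.20 for Tcap and -0.19 to -0.20 for Fhl2). Ttn had the largest interaction value of the members at 8 h, 0.59 ± 0.28, and was not called (adjusted p = 0.30).

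Other genes of the same structures, 65 in all, gave 63 that were tested. At 0 h, 27 of them were higher and 7 lower in KO than in WT cells (median 0.08), and at 8 h 17 were higher and 13 lower (median 0.05). All values of these genes are by TMM scaling and were not read under the others. Library size, non-mitochondrial total and ribosomal protein scaling shifted the median of all genes at 0 h to -0.22, -0.16 and -0.35. Of all tested genes 18.8% were called higher and 17.9% lower at 0 h, and 13.9% and 13.7% at 8 h. Of the 25 other costamere genes 9 were higher and none lower at 0 h, and of the 10 other intermediate filament and chaperone genes 4 were higher and 4 lower. The highest at 0 h were Myom3, another myomesin, with 3.31 CPM in KO and 1.84 CPM in WT cells (0.84 ± 0.18, adjusted p = 1.8e-04), Smyd2, a lysine methyltransferase, at 76.0 and 48.1 CPM (0.66 ± 0.06, adjusted p = 4.3e-12), and Stub1, a ubiquitin ligase that works with Bag3, at 26.0 and 17.02 CPM (0.61 ± 0.07, adjusted p = 3.4e-10). The lowest were Capn3, the titin-bound protease calpain 3, at 0.251 and 0.594 CPM (-1.21 ± 0.47, adjusted p = 0.038), Neb, the gene of nebulin, at 4.88 and 9.87 CPM (-1.02 ± 0.13, adjusted p = 2.6e-09), and Klhl40, which stabilises nebulin, at 13.0 and 15.5 CPM (-0.26 ± 0.08, adjusted p = 0.013). At 8 h the highest were Myom3 (0.93 ± 0.18), Zyx (zyxin of focal adhesions, 0.56 ± 0.10) and Smyd2 (0.52 ± 0.06), and the lowest Capn3 (-1.26 ± 0.40), Klhl40 (-0.84 ± 0.09) and Neb (-0.75 ± 0.12). In the interaction at 8 h none of the 63 was higher and 7 were lower, where 1.87% of tested genes were called higher and 3.33% lower.

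Several members are neighbours on chromosomes in GRCm38. Des and Obsl1 lie on the same chromosome at chr1:75360329-75368579 and chr1:75479310-75506452. By TMM scaling both were higher in KO cells at 0 h, but at 8 h Des was higher and Obsl1 lower. Synpo2l and Vcl lie at chr14:20658946-20668354 and chr14:20929398-21033676, and only Vcl was called between the genotypes, a contrast between the 2 genes that was not itself tested. Across the 33 members the Spearman correlation of exon length with the genotype difference at 0 h was -0.17 and that of 3′ UTR length was 0.00, and with the WT change over 8 h they were -0.20 and -0.38.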

How the data were processed

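Raw counts per Ensembl gene and a second table of ratios, each relative to the gene's baseline mean in its genotype, were deposited by the authors. The builds GRCm38 and mm10 and the tools limma, DESeq2, featureCounts and STAR are named in the submitters' processing notes, without versions, roles or the strand of counting. A row that names no gene (0.00735 to 0.0155% of counts) was left out. Gene positions came from GENCODE M21, which matched 99.5% of 55486 IDs, and promoters from RefSeq (GRCm38.p6).

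For the counts of 17 libraries, edgeR 4.0.16 (R 4.3.3) was used with filterByExpr, TMM scaling and 1 robust quasi-likelihood model of the 6 groups (biological coefficient of variation 5.29%), with Benjamini-Hochberg adjustment within each of 9 comparisons. The script was tested on simulated data. Squared differences within pairs of libraries of a group were 1.23 to 1.82 times those expected from counting alone. No pair was therefore taken as repeat files of 1 library. This does not show separate animals. Alternatives were DESeq2 1.42.0, 4 other scalings, 2 filters, smaller fits, a replicate block, each library left out, and limma 3.58.1 on log2(ratio + 0.01) of the deposited ratios.

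The members and gene lists were chosen with earlier results of these data known. Tested values are printed for the 5 highest and 3 lowest called members of a comparison, all called interactions and the largest difference of each role at 0 h; those of Ttn, Xirp1, Flnc, Cmya5, Fhl2, Myom2, Myoz2, Obsl1, Bag3, Xirp2 and Dmd in further comparisons were added after their values were seen.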

Additional observations from a re-analysis of the deposited data

Results flagged for a closer look

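By TMM scaling the change during the block was called different between KO and WT cells for 10 results, by the interaction term of edgeR's quasi-likelihood model. None of these was called under all 5 scalings. By ribosomal protein scaling Actn2, Tcap, Xirp1 and Fhl2 turned above 0 at 8 h. At 4 h it was -0.39 for Xirp1 (adjusted p = 3.6e-04), which stood lower in all 3 KO libraries than in both WT libraries at 4 h while the genotypes overlapped at 0 h. At 8 h the values were -0.41 for Obsl1 (adjusted p = 4.6e-04), -0.40 for Myoz2 (adjusted p = 7.0e-04), -0.32 for Lmod2 (adjusted p = 5.3e-04), -0.31 for Bag3 (adjusted p = 0.0013), -0.29 for Csrp3 (adjusted p = 0.0015), -0.25 for Xirp1 (adjusted p = 0.011), -0.23 for Actn2 (adjusted p = 0.0070), -0.22 for Fhl2 (adjusted p = 0.023) and -0.19 for Tcap (adjusted p = 0.047). By TMM scaling Obsl1 and Myoz2 were higher in KO cells at 0 h and lower at 8 h, in the same libraries that gave the interaction. At 0 h Obsl1 was -0.0619, -0.00223 and -0.19 by library size, non-mitochondrial total and ribosomal protein scaling. Myoz2 was -0.0976 by the last of these. Each group held 2 or 3 libraries, so single outlying libraries were not looked for.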

How the results depend on the processing

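With the 33 members' calls under TMM scaling at 23, 23 and 25 between genotypes at 0, 4 and 8 h, at 22 and 27 (WT 4 and 8 h against 0 h), 22 and 28 (KO 4 and 8 h), 1 and 9 (interactions at 4 and 8 h), the counts of calls between genotypes stayed within 1.5 times under every alternative run, although their split into higher and lower did not. Other counts moved further. By library size alone they were 6 (WT 4 h), 16 (WT 8 h), 0 (interaction at 4 h) and 2 (interaction at 8 h). Of 13229 tested genes, 3304, 7172, 100 and 696 were called in these comparisons. By the total of genes not encoded in mitochondria they were 9 (WT 4 h) and 9 (KO 4 h), with 3495 and 3325 of all tested genes. By ribosomal protein scaling they were 5 (WT 4 h), 6 (KO 4 h), 18 (KO 8 h) and 18 (interaction at 8 h). Of all tested genes it called 3003, 4661, 8149 and 3215. From the deposited ratios, with pseudocounts of 0.01 and 0.1 and without the filter in that order, they were 5, 5 and 2 (WT 4 h), 14, 14 and 12 (WT 8 h), 4, 5 and 3 (KO 4 h), 13, 13 and 12 (KO 8 h), 0, 0 and 0 (interaction at 4 h) and 1, 1 and 0 (interaction at 8 h). With the pseudocount of 0.01, 1583 (WT 4 h), 6231 (WT 8 h), 1943 (KO 4 h) and 5104 (KO 8 h) of 13222 ratio genes were called. In the interactions 2 (4 h) and 129 (8 h) were. The cause was not tested. With 1 library left out, counts lay at 21 to 24, 20 to 24 and 20 to 25 between genotypes, 16 to 21 and 25 to 28 in WT, 20 to 22 and 23 to 28 in KO, and 1 to 1 and 7 to 10 in the interactions; a group left with 1 library is assumed to vary like the others.

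These log2 fold changes turned sign among the members named with an adjusted p; others called higher in KO than in WT cells at 0 h had lowest values over the scalings of -0.19 (Fhl1), -0.12 (Dag1), -0.10 (Des), -0.0959 (Nebl), -0.0454 (Lmod2), -0.0159 (Tcap) and -0.00600 (Csrp3). By ribosomal protein scaling: Myoz2 -0.0976, Obsl1 -0.19, Bag3 -0.18 and Xirp1 -0.30 (KO against WT at 0 h), Ttn -0.0435 (at 4 h), Tcap -0.0448 and Dag1 -0.0488 (WT 4 h), Actn2 -0.0399, Tmod1 -0.10, Des -0.21, Xirp2 -0.27, Dmd -0.58 and Cmya5 -0.25 (WT 8 h), Myoz2 -0.0304, Xirp2 -0.0179 and Dmd -0.20 (KO 8 h), and Actn2 0.0561, Tcap 0.0946, Xirp1 0.0364 and Fhl2 0.0657 (interaction at 8 h). By library size alone: Obsl1 -0.0619, Bag3 -0.0511 and Xirp1 -0.17 (0 h), Tcap -0.0339 and Dag1 -0.0415 (WT 4 h) and Dmd -0.13 (WT 8 h). By the non-mitochondrial total: Obsl1 -0.00223 and Xirp1 -0.11 (0 h), Tcap -0.0280 and Dag1 -0.0331 (WT 4 h), Dmd -0.18 (WT 8 h) and -0.0476 (KO 8 h). From the deposited ratios, in the order above: Tcap -0.00690, -0.00637 and -0.00690 and Dag1 -0.0409, -0.0376 and -0.0409 (WT 4 h), and Dmd -0.0816, -0.0750 and -0.0816 (WT 8 h) and -0.0354, -0.0324 and -0.0354 (KO 8 h). No sign turned under DESeq2, its size factors, other filters, smaller fits or single libraries left out.

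A replicate block gave the same counts, 23, 23, 25, 22, 27, 22, 28, 1 and 9, and changed no call of a named member. Residuals of libraries with equal numbers in different groups correlated at -0.0469 to 0.0382 over 40 pairs. Squared differences between libraries of a group were only 1.23 to 1.82 times those expected from counting, so shared variation would be hard to see. Whether the numbers pair the libraries is thus not settled. Depth limits Synm and Pdlim3, with under 6 CPM in every library.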
